A study of Mus musculus with 13 samples.

Results

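The 38 genes described here carry or serve antigen presentation by the mouse major histocompatibility complex (MHC), out of 13846 genes in the authors' expression sheet. They were chosen by name, as every listed gene whose symbol starts with H2- together with a set of named partners. The rule uses no measured value, but it was written with earlier results of these data known. There are 14 class I genes (13 heavy chain genes or pseudogenes and B2m), 13 genes of class I peptide processing and loading, 7 class II genes and 4 class II regulators. The data are 13 RNA-seq libraries of the tibialis anterior, a shin muscle. The 4 mdxTG libraries came from mdx mice carrying a transgene for sarcospan (SSPN), a small protein of the dystrophin-glycoprotein complex in the muscle membrane. The 4 mdx libraries came from mice with mutated dystrophin, the mouse model of Duchenne muscular dystrophy, and the 5 WT libraries from wild-type mice. The dystrophin mutation is thus shared by the mdxTG and mdx groups, and the transgene separates them. The sources used here do not give strain, age or sex, nor the promoter and species of the transgene. Whether every library is a separate animal is not stated either, so p-values measure only the spread between libraries, which may be technical. Library identifiers in the labels run on in WT and form another run shared by mdx and mdxTG, and if they mark cohorts, cohort and genotype cannot be told apart in comparisons with WT.

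MHC class I molecules stand on nearly all nucleated cells and show peptides cut by the proteasome in the cytosol to CD8 T cells. The peptides are pumped into the endoplasmic reticulum by the TAP transporter, trimmed there and fitted into a heavy chain paired with beta-2-microglobulin, with the help of tapasin, calreticulin and calnexin. MHC class II molecules belong mainly to macrophages, dendritic cells and B cells and show endosomal peptides to CD4 T cells. The invariant chain Cd74 guards the class II groove until H2-DM exchanges its remnant for a peptide. Resting muscle fibres are known for little class I and almost no class II on their surface. Muscle of mdx mice holds macrophages and other leukocytes among degenerating and regenerating fibres.

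The groups carried their labels' marks, and all 38 genes passed the filter on low values. Sspn was at 1583 to 2006 normalized CPM in mdxTG, 109 to 119 in mdx and 101 to 136 in WT. Dmd, the dystrophin gene, was at 53.9 to 62.3 in mdxTG, 48.7 to 58.3 in mdx and 124 to 256 in WT, where WT replicate 2 was the lowest. All 10 markers of skeletal muscle were listed, with a summed level of 98560 to 118300 normalized CPM in mdxTG, 129600 to 162900 in mdx and 168700 to 219700 in WT. Libraries held 53.26 to 68.44 M reads, and 3 reads of a gene, the level that a count of 0 allows, came to 0.0504 to 0.0818 normalized CPM (counting error only). The unit, normalized CPM, is reads of a gene per M reads, scaled by the authors' factor for each library. These factors were 1.107 to 1.191 in mdxTG, 1.006 to 1.068 in mdx and 0.831 to 0.932 in WT, so the groups do not overlap in them. With plain CPM the median log2 fold of all genes moved to 0.36 for mdxTG against WT, 0.13 for mdxTG against mdx and 0.20 for mdx against WT. In the authors' scale, used throughout unless plain CPM is named, it was 0.016 for mdxTG against WT, 0 for mdxTG against mdx and -0.013 for mdx against WT.

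Genes of both classes share a promoter layout, known as the S, X and Y boxes, on which RFX, CREB and NF-Y proteins assemble. The coactivator Ciita joins them at class II genes and Nlrc5 at class I genes. The sequences below are the 200 bases upstream of the RefSeq transcription start in GRCm38.p6 (mm10). They are shown as a description, and their part in the expression differences was not tested. Capitals mark, on either strand, the Y box core TGATTGG, the CREB half-site TGACG, the class II X box end TGATGATGC, the interferon response letters AANTGAAA and the kappa B letters GGGATTNCC. These letters were chosen with the promoters in view, and matches may overlap, as the pair of half-sites of H2-Aa does.
H2-Aa (class II alpha chain, chr17:34287824-34288023, minus strand): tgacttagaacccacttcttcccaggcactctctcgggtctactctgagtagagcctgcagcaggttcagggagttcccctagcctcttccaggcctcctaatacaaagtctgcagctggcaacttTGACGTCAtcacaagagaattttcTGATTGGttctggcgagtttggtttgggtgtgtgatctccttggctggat
H2-Eb1 (class II beta chain, chr17:34305667-34305866, plus strand): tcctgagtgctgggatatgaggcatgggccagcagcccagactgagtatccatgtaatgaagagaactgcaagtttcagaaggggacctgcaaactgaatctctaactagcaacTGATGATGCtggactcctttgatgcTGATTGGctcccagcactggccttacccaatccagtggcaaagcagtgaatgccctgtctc
H2-DMb1 (peptide exchange, chr17:34152991-34153190, plus strand): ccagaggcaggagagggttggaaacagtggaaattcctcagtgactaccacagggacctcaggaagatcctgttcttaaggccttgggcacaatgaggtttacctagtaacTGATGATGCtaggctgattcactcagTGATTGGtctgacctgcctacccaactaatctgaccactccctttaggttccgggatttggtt
H2-DMb2 (neighbouring copy of H2-DMb1, chr17:34145049-34145248, plus strand): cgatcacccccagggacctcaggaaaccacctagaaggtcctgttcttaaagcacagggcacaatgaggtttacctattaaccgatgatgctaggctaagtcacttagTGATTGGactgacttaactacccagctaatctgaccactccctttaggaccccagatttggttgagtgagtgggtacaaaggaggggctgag
H2-K1 (class I heavy chain, chr17:34000348-34000547, minus strand): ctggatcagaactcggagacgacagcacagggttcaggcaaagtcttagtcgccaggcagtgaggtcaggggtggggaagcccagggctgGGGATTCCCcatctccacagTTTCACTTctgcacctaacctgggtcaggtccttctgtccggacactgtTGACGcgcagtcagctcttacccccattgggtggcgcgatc
H2-D1 (class I heavy chain, chr17:35262894-35263093, plus strand): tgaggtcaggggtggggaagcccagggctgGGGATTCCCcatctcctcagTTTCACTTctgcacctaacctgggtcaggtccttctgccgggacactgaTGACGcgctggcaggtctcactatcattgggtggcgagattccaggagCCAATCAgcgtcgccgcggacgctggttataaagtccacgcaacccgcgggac
H2-T23 (non-classical class I heavy chain, chr17:36032702-36032901, minus strand): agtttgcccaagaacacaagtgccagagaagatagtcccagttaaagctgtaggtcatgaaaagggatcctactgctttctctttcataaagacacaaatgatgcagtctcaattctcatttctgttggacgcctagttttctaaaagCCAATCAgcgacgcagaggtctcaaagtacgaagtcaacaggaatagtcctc
B2m (beta-2-microglobulin, chr2:122147487-122147686, plus strand): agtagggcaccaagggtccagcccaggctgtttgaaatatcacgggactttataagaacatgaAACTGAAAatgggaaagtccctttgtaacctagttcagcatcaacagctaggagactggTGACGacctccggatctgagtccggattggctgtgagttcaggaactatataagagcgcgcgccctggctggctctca

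RefSeq promoters were matched for 27 of the 38 genes. The Y box core lay in 4 of 5 class II genes with a matched promoter and in 6 of 10 class I genes, against 6.6% of all 32851 promoters in windows of the same length. The X box end TGATGATGC was found at H2-Eb1 and H2-DMb1 only among these class I and class II genes, 86 and 89 bases before the start, and in 0.1% of all promoters. H2-DMb2 carries a Y box core 92 bases before its RefSeq start but no exact match to that X box end. H2-Aa has no exact match to it either, and H2-DMa has none of the marked letters in its RefSeq windows. Both H2-Aa and H2-DMa were higher in mdx and in mdxTG than in WT. The CREB half-site was present in 7 of 10 class I genes and in 1 of 5 class II genes, against 15.7% of all promoters. The interferon response letters were in 9 of 10 class I and 0 of 5 class II promoters (4.4% of all), and the kappa B letters in 5 of 10 and 0 of 5 (0.6% of all). H2-T23 was the class I gene of the 10 without the interferon response letters in its window. The RefSeq start lies inside the annotated gene of GENCODE M21 for H2-DMa, H2-DMb1, H2-DMb2, H2-D1 and H2-T23, so other starts exist for them. The H2-DMa windows end at 34122831 and 34125517, downstream of its annotated start at 34119541. The bases before that annotated start were not examined, so the missing letters describe the RefSeq windows only.

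Across the whole group, 17 of the 38 genes were higher in mdx than in WT and 0 were lower, where 18.5% of the 13831 genes tested were higher and 16.1% lower, 34.6% in all (limma, adjusted p under 0.05). None was lower at an unadjusted p under 0.05 either, and edgeR and DESeq2 each called 0 lower. In mdxTG against WT 20 were higher and 2 lower, against 28.7% and 25.3% of all genes (54% in either direction). In mdxTG against mdx 8 were higher and 2 lower (9 and 0 in plain CPM), against 15.4% and 12.9%, and the 10 called lie near the 28.4% of all genes called in either direction. In bulk tissue, more cells that express a gene and more of its RNA per cell cannot be told apart. The 3 comparisons share libraries and are not independent of each other. Counted by class, 6 of 7 class II genes, 6 of 14 class I genes, 3 of 13 processing genes and 2 of 4 regulators were higher in mdx than in WT. The median log2 fold of mdx against WT was 1.11 over the class II genes and 0.37 over the class I genes, against -0.013 over all genes.

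**Figure D1:**
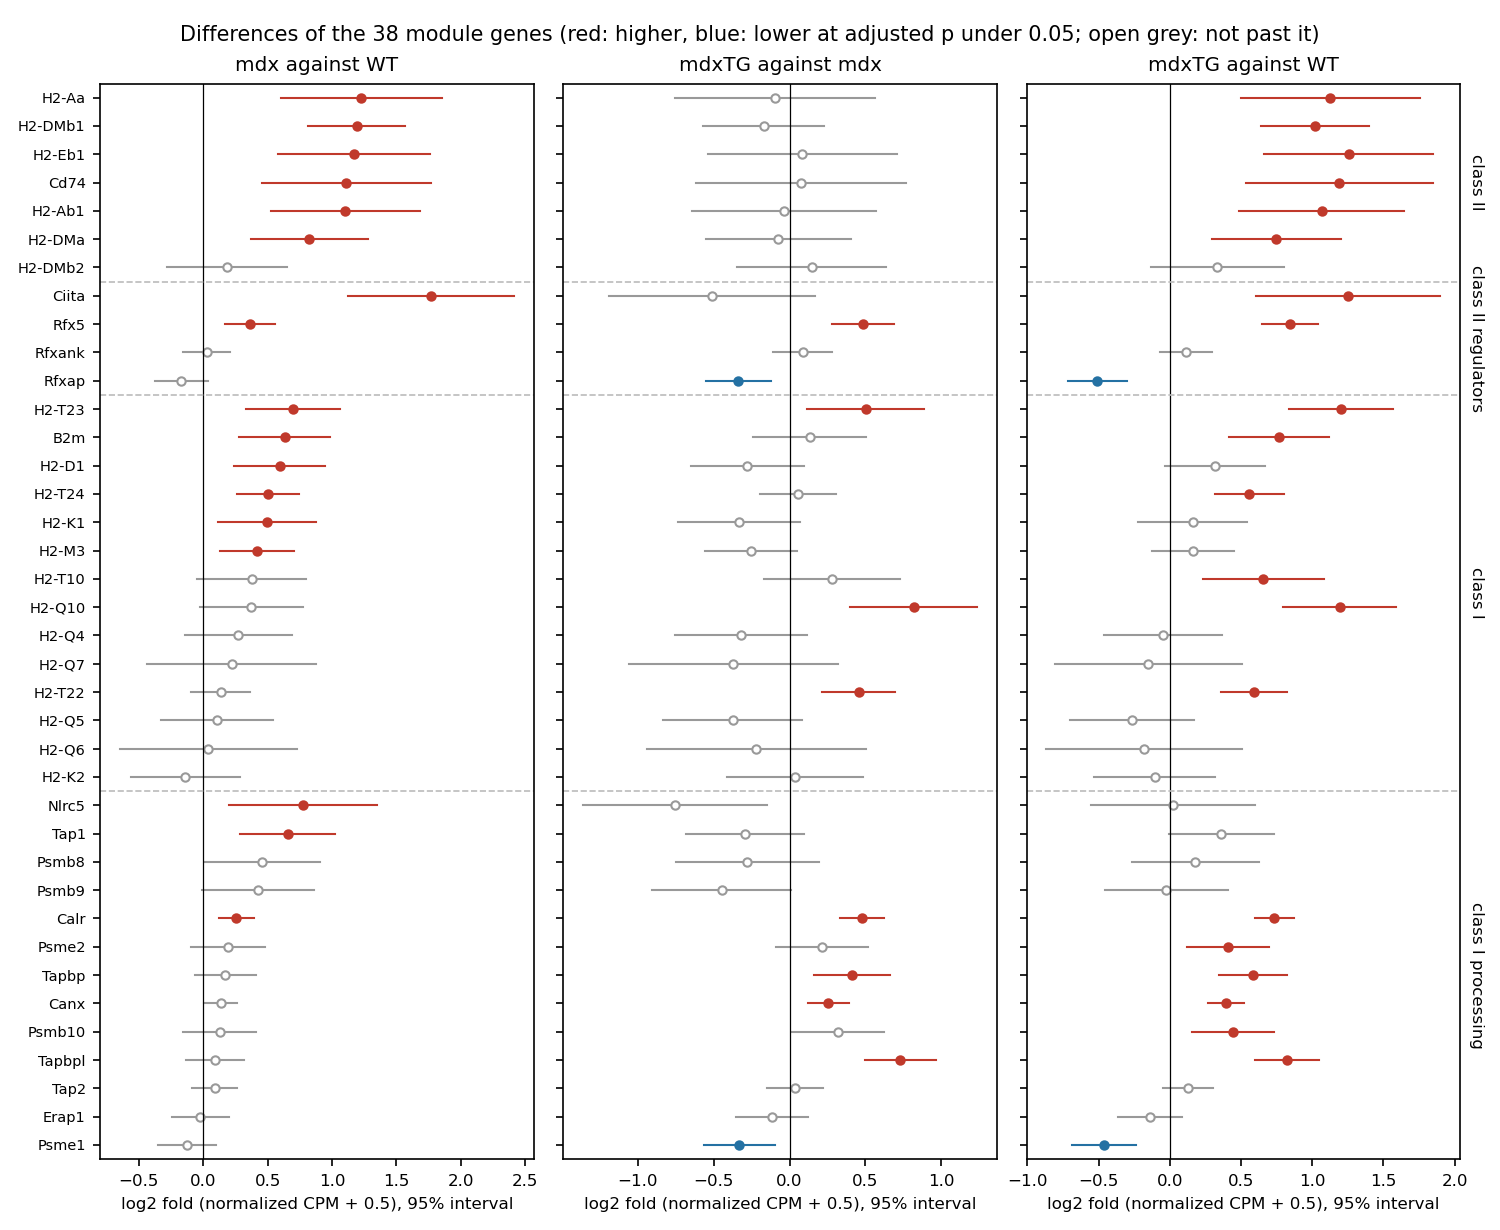
Log2 folds of the 38 genes on the scale of log2(normalized CPM + 0.5), with 95% intervals from limma, by class (rows) and comparison (panels); red is higher and blue lower at an adjusted p under 0.05, and open grey did not pass. Apart from H2-DMb2 (0.19 in mdx and 0.33 in mdxTG), the class II rows lie near 1 in both comparisons with WT. In mdxTG against mdx all class II rows lie across 0, while Calr, Tapbpl, H2-Q10 and Rfx5 lie to the right of 0.

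Class II genes were higher in dystrophic than in healthy muscle, with or without the transgene. Of the 7, 6 were higher in mdx than in WT, by 1.77-fold to 2.34-fold, 5 of them without overlap between the libraries, where 15% of all genes were higher without overlap. The same 6 were higher in mdxTG than in WT, by 1.68-fold to 2.39-fold, again 5 without overlap (23.7% of all genes). Between mdxTG and mdx 0 of the 7 passed in either direction with limma, 0 at an unadjusted p under 0.05, and 0 with edgeR or DESeq2.

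H2-Aa (chromosome 17, 34282744 to 34287823), the alpha chain of the I-A molecule, had 102, 114, 104 and 124 normalized CPM in mdxTG libraries 1 to 4, 75.7, 119, 122 and 178 in mdx libraries 1 to 4, and 21.7, 57.2, 69.6, 61.8 and 59.9 in WT libraries 1 to 5. All libraries of both dystrophic groups lay above all WT libraries, WT replicate 1 was far below the other WT libraries, and mdx replicates 1 and 4 bracketed the mdxTG group. The log2 fold of mdx over WT was 1.23 ± 0.29 (SE), a 2.34-fold difference with a limma adjusted p of 0.00492. Against WT, mdxTG stood at 1.13 ± 0.29 (limma adjusted p = 0.00476). Between mdxTG and mdx the difference was -0.10, with a 95% interval from -0.76 to 0.56, so a change of up to about that size in either direction is not told apart from 0.

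H2-Ab1 (chromosome 17, 34257689 to 34269419) encodes the beta chain that pairs with H2-Aa. Its levels were 75.1, 85.7, 69.8 and 89.3 normalized CPM in mdxTG, 60.4, 81.1, 80.4 and 113 in mdx, and 17, 51.9, 52.8, 38.8 and 42.1 in WT. The dystrophic libraries again lay above every WT library, and the lowest value was that of WT replicate 1. The log2 fold was 1.10 ± 0.27 for mdx over WT (limma adjusted p = 0.00572), 1.07 ± 0.27 for mdxTG over WT (0.00407) and -0.04 for mdxTG over mdx, with an interval from -0.65 to 0.57.

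H2-Eb1 (chromosome 17, 34305867 to 34316674), the beta chain of the I-E molecule, had 78, 90.2, 78.3 and 95.8 normalized CPM in mdxTG, 57, 81, 77.2 and 117 in mdx, and 15.5, 44.7, 48.4, 40.5 and 40.9 in WT. No WT library reached the lowest dystrophic one, mdx replicate 1. The log2 fold was 1.17 ± 0.28 for mdx over WT (limma adjusted p = 0.00465) and 1.26 ± 0.28 for mdxTG over WT (0.00156). Its mdxTG to mdx fold was 0.09, with an interval from -0.54 to 0.71. H2-Ea, the alpha partner of H2-Eb1, was not analysed here.

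Cd74 (chromosome 18, 60803848 to 60812652), the invariant chain, had the highest level per kb of exon among the class II genes in all 3 groups, with means of 123 normalized CPM per kb in mdxTG, 120 in mdx and 57.6 in WT. Per library, 178, 230.4, 172 and 246 normalized CPM were measured in mdxTG, 134, 179, 201 and 289.9 in mdx, and 36.7, 114, 123, 98.7 and 111 in WT. The groups separated in the same way, and mdx replicate 4 and WT replicate 1 were the extremes. Cd74 rose by a log2 fold of 1.11 ± 0.31 in mdx over WT (limma adjusted p = 0.0118) and by 1.19 ± 0.31 in mdxTG over WT (0.00464). Next per kb came H2-Eb1, with 44.0 in mdxTG, 42.7 in mdx and 19.5 in WT, then H2-Ab1 and H2-Aa, which lay within their spread of each other at 29.2 to 32.6 in the dystrophic groups. This order depends on the exon lengths used, 3798 bases for H2-Aa and 1944 for H2-Eb1. Without the length, H2-Aa had the higher mean (111 against 85.6 normalized CPM in mdxTG, 124 against 83 in mdx, 54 against 38 in WT).

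Of the 3 genes of the peptide exchange factor H2-DM, H2-DMb1 and H2-DMa passed in both comparisons with WT and H2-DMb2 in neither. H2-DMb1 (chromosome 17, 34153072 to 34160230), a beta chain of that heterodimer, had 6.39, 6.63, 6.23 and 7.89 normalized CPM in mdxTG, 6.22, 7.55, 7.86 and 9.32 in mdx, and 1.81, 3.41, 4.39, 2.92 and 3.37 in WT. Every dystrophic library was above every WT library, and the log2 fold of mdx over WT was 1.19 ± 0.18, with the smallest p among the class II genes (limma adjusted p = 0.000154). H2-DMa, the alpha chain, averaged 8.56 ± 1.31 in mdxTG, 9.17 ± 2.30 in mdx and 5.05 ± 1.61 normalized CPM in WT (SD, n = 4, 4 and 5). It was higher in mdx than in WT by 0.82 ± 0.21 (limma adjusted p = 0.008) and in mdxTG than in WT by 0.75 ± 0.21 (0.0084), with overlap of single libraries in both comparisons. H2-DMb2, the second beta chain gene, had 0.937, 0.986, 0.857 and 0.868 normalized CPM in mdxTG, 0.72, 1.07, 0.745 and 0.606 in mdx, and 0.314, 1.04, 1.21, 0.265 and 0.578 in WT. WT libraries held both its lowest and its highest values, and its log2 folds of 0.19 (mdx over WT, interval from -0.28 to 0.65) and 0.33 (mdxTG over WT, -0.13 to 0.80) did not pass, although in plain CPM that of mdxTG over WT was 0.55 and did (0.0347). H2-DMb1 and H2-DMb2 share 22.7% and 24.8% of their 50-base stretches with other genes, mostly each other, so reads may have been divided between them and the low H2-DMb2 level is uncertain.

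**Figure D2:**
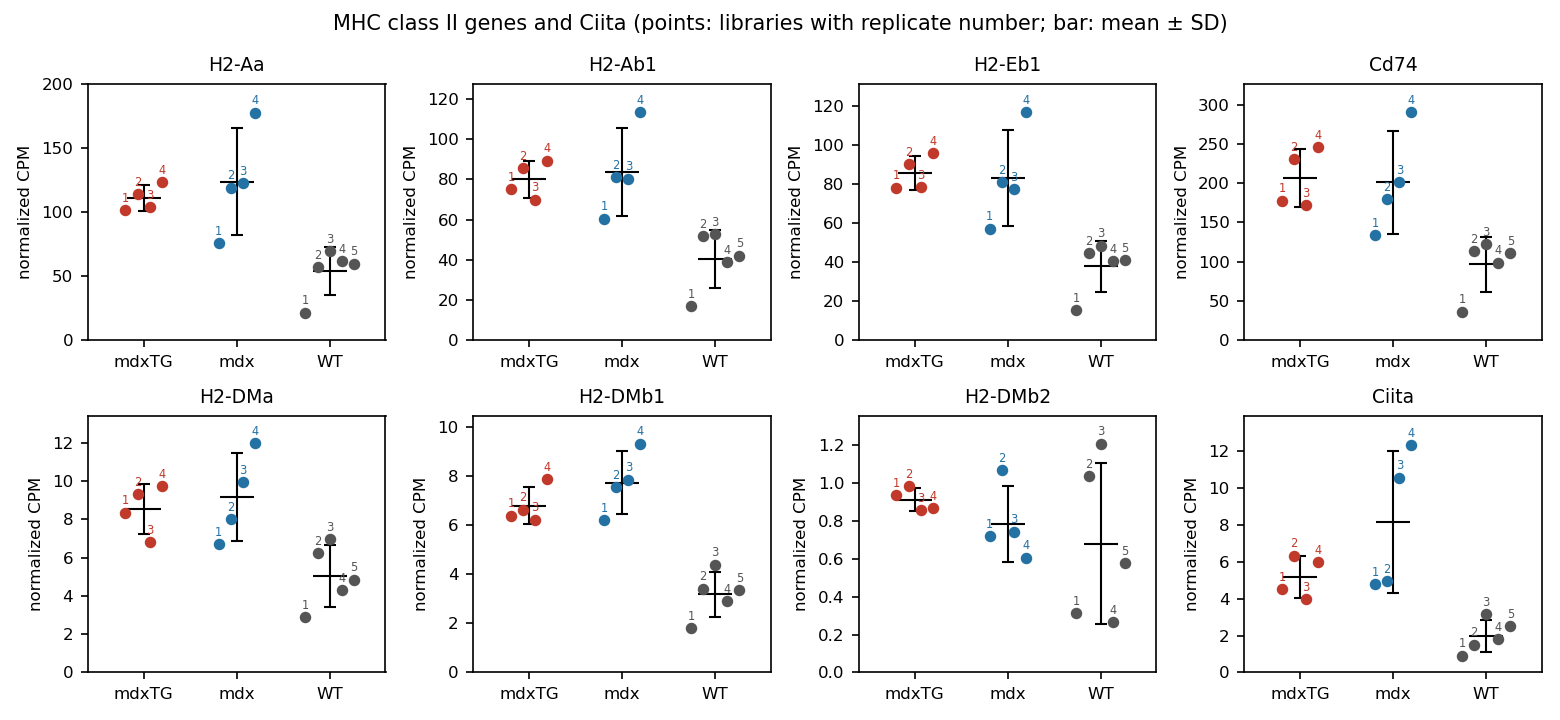
Normalized CPM of the 7 class II genes and of Ciita in mdxTG, mdx and WT libraries; points are libraries with their replicate number and bars are the mean ± SD of 4, 4 and 5 libraries. Except for H2-DMb2, WT replicate 1 is at or near the bottom of each panel (21.7 for H2-Aa) and mdx replicate 4 at the top (178 for H2-Aa).

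Of the class II regulators, Ciita (chromosome 16, 10480059 to 10528418), the master coactivator of class II genes, had 4.52, 6.34, 3.96 and 6 normalized CPM in mdxTG, 4.8, 4.97, 10.6 and 12.4 in mdx, and 0.918, 1.5, 3.16, 1.8 and 2.53 in WT. No dystrophic library fell into the WT range, and mdx split into replicates 1 and 2, within the mdxTG range, and replicates 3 and 4, above it. Its log2 fold of 1.77 ± 0.30 for mdx over WT was the largest of the 38 genes in any comparison (limma adjusted p = 0.000466), and that of mdxTG over WT was 1.25 ± 0.30 (0.0029). The mdxTG to mdx fold of -0.51 had an interval from -1.19 to 0.17 and did not pass (limma adjusted p = 0.256).

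Rfx5 and Rfxap encode partners in the RFX complex that binds the X box, and they went in opposite directions. Rfx5 (chromosome 3, 94954075 to 94961561) had 19.5, 15.5, 15.1 and 16.3 normalized CPM in mdxTG, 11.2, 11.4, 12.7 and 11.5 in mdx, and 8.24, 9.93, 9.15, 8.11 and 9.56 in WT, so the 3 groups formed steps without overlap. It was higher in mdx than in WT by 0.36 ± 0.09 (limma adjusted p = 0.00694), in mdxTG than in mdx by 0.48 ± 0.10 (0.00172) and in mdxTG than in WT by 0.84 ± 0.09 (2.74e-06). Rfxap (chromosome 3, 54803115 to 54807791) had 10.8, 11.3, 11.2 and 10.7 in mdxTG, 16.6, 13.3, 13.9 and 12.5 in mdx, and 14.8, 19.3, 14.4, 15.7 and 15.4 in WT. All 4 mdxTG libraries were below all others, with a log2 fold of -0.34 ± 0.10 over mdx (limma adjusted p = 0.0223) and of -0.51 ± 0.10 over WT (0.00047). In plain CPM these folds were -0.20 and -0.15 and did not pass (adjusted p of 0.139 and 0.185), and the fall against mdx was also lost without mdxTG replicate 1 (0.0523), mdxTG replicate 4 (0.056) or mdx replicate 1 (0.0752). The ratio of Rfx5 to Rfxap, which the scaling does not touch, was 1.36 to 1.81 in mdxTG, 0.675 to 0.918 in mdx and 0.515 to 0.635 in WT. Rfxank, the third subunit, had means of 9.64 in mdxTG, 9.09 in mdx and 8.89 normalized CPM in WT, and passed in no comparison, but in plain CPM it was higher in mdx (0.0256) and in mdxTG (0.000187) than in WT.

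Among class I genes, B2m and the heavy chains H2-D1, H2-K1, H2-M3, H2-T23 and H2-T24 were higher in mdx than in WT. In mdxTG against mdx the genes that passed were H2-T23, H2-T22 and H2-Q10. Of 14 genes, 6 were higher in mdx than in WT, 4 of them without overlap, where 18.5% of all genes were higher and 15% higher without overlap. For H2-T24 and H2-M3 that gap was very narrow. The lowest mdx and highest WT libraries were at 3.775 and 3.763 normalized CPM for H2-T24, and at 3.022 and 2.999 for H2-M3. In mdxTG against WT 6 were higher, all without overlap (28.7% and 23.7% of all genes). In mdxTG against mdx 3 were higher, 2 without overlap (15.4% and 18.1% of all genes), a share near the background. The count lower was 0 in each of the 3 comparisons, with limma at the adjusted and at an unadjusted p under 0.05, with edgeR and with DESeq2.

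The classical heavy chains H2-D1 and H2-K1, which show peptides to CD8 T cells, had their highest means in mdx. H2-D1 (chromosome 17, 35262730 to 35267499) had 119.6, 128, 122 and 131 normalized CPM in mdxTG, 126, 141, 136 and 219.5 in mdx, and 71.1, 121, 119, 95.2 and 104 in WT. The mdx libraries lay above the WT libraries, with mdx replicate 4 far above the rest, and mdxTG overlapped both groups. Its log2 fold was 0.60 ± 0.17 for mdx over WT (limma adjusted p = 0.0121), with 0.32 (interval from -0.04 to 0.67) for mdxTG over WT and -0.28 (-0.65 to 0.09) for mdxTG over mdx, which did not pass. In plain CPM that of mdxTG over WT was 0.69 and passed (0.00436). H2-K1 (chromosome 17, 33996017 to 34000347) had 96.8, 80.4, 92.7 and 84.2 in mdxTG, 89.1, 111, 96.1 and 160.3 in mdx, and 59.4, 112, 85.9, 69.4 and 77.5 in WT. WT replicate 2 reached the second highest mdx library, and the fold of mdx over WT was 0.49 ± 0.18 (limma adjusted p = 0.0448). That call was lost in 15 of 27 alternatives, among them the replicate number as a block (adjusted p = 0.0714), without mdx replicate 4 (0.163) or 2 (0.0842), without WT replicate 1 (0.101), 3 (0.0542), 4 (0.0944) or 5 (0.0691), and without any 1 of the mdxTG libraries (0.0527 to 0.0564).

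B2m (chromosome 2, 122147686 to 122153083), the light chain that every class I heavy chain needs, had the highest level per kb of the 14, with means of 185 normalized CPM per kb in mdxTG, 175 in mdx and 109 in WT. Its levels were 166, 147, 166 and 157 normalized CPM in mdxTG, 107, 148, 127 and 219 in mdx, and 77.5, 118, 91.2, 93.4 and 90.3 in WT. The mdxTG libraries were close together and above every WT library, while mdx replicate 1 lay below WT replicate 2. B2m was higher in mdx than in WT by 0.63 ± 0.17 (limma adjusted p = 0.00837) and in mdxTG than in WT by 0.77 ± 0.17 (0.00131). It did not pass between mdxTG and mdx (0.13, interval from -0.24 to 0.50).

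H2-T23 (chromosome 17, 36029773 to 36032855) encodes Qa-1, which shows leader peptides of other class I chains to receptors of NK cells. It had 36.7, 32.7, 27.4 and 31.3 normalized CPM in mdxTG, 19.1, 20.5, 21.1 and 30 in mdx, and 9.08, 18.1, 12.9, 14.8 and 14.5 in WT. The groups were ordered with mdxTG highest and WT lowest, and mdx replicate 4 reached into the mdxTG range. The fold was 1.20 ± 0.17 for mdxTG over WT (limma adjusted p = 3.9e-05), 0.70 ± 0.17 for mdx over WT (0.00562) and 0.50 ± 0.18 for mdxTG over mdx (0.0498). The last of these was lost in 14 of 27 alternatives, for example with edgeR (0.0532), without mdxTG replicate 1, 2 or 4 (0.0882 to 0.128), without mdx replicate 1, 2 or 3 (0.103 to 0.134) and without WT replicate 3, 4 or 5 (0.0581 to 0.0612). The ratio of H2-T23 to H2-K1 in a library was 0.296 to 0.406 in mdxTG, 0.184 to 0.220 in mdx and 0.150 to 0.214 in WT, so mdxTG stood apart in it.

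H2-T22 (chromosome 17, 36037128 to 36042747), a ligand of some gamma delta T cells in mice, had 29.2, 23.2, 27.5 and 23.6 normalized CPM in mdxTG, 18.2, 19.6, 16.2 and 20.9 in mdx, and 15, 20.5, 15.7, 18 and 16.1 in WT. All mdxTG libraries lay above all others, and mdx overlapped WT. The fold was 0.46 ± 0.11 for mdxTG over mdx (limma adjusted p = 0.00769) and 0.59 ± 0.11 for mdxTG over WT (0.000352). Its near copy H2-T10, annotated as a polymorphic pseudogene, had means of 1.33 in mdxTG, 1.01 in mdx and 0.675 in WT and was higher in mdxTG than in WT by 0.66 ± 0.20 (0.012). H2-T22 and H2-T10 share 31.2% and 31.7% of their 50-base stretches with each other, so the division of reads between them is uncertain.

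H2-Q10 (chromosome 17, 35470089 to 35474563), a secreted class I molecule known from mouse liver, was low, with 2.52, 1.35, 1.21 and 1.36 normalized CPM in mdxTG, 0.873, 0.579, 0.679 and 0.55 in mdx, and 0.169, 0.627, 0.421, 0.345 and 0.498 in WT. Every mdxTG library exceeded every other library, and mdxTG replicate 1 stood above the other 3. The fold on the scale with 0.5 added was 0.82 ± 0.20 for mdxTG over mdx (limma adjusted p = 0.00606) and 1.19 ± 0.19 for mdxTG over WT (9.21e-05). That scale understates the change of such low genes, and H2-Q10 shares 19% of its 50-base stretches with other genes, mostly H2-Q7.

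H2-T24 had 4.44, 4.47, 4.47 and 4.54 normalized CPM in mdxTG, 3.78, 4.06, 4.31 and 5.1 in mdx, and 2.71, 3.76, 2.47, 2.78 and 2.81 in WT. The mdxTG libraries differed by little among themselves and lay above all WT libraries, as did mdx. The fold was 0.50 ± 0.11 for mdx over WT (limma adjusted p = 0.00315) and 0.56 ± 0.11 for mdxTG over WT (0.000758). H2-M3, which shows N-formylated peptides of bacteria and mitochondria in mice, averaged 3.03 ± 0.475 in mdxTG, 3.73 ± 0.795 in mdx and 2.64 ± 0.336 normalized CPM in WT (SD, n = 4, 4 and 5). It was higher in mdx than in WT by 0.42 ± 0.14 (limma adjusted p = 0.0262), and it did not pass with the replicate number as a block (0.0593) or without mdx replicate 1 (0.0503), mdx replicate 4 (0.1), WT replicate 1 (0.0578) or WT replicate 5 (0.0505).

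The Qa-2 genes H2-Q6 and H2-Q7, their relatives H2-Q4 and H2-Q5, and the pseudogene H2-K2 passed in none of the 3 comparisons. H2-Q4, the most abundant of these per kb, had 19.6, 15, 17.7 and 15.4 normalized CPM in mdxTG, 17.7, 22.5, 16.7 and 29.9 in mdx, and 12.1, 25.1, 19.8, 15.7 and 17 in WT, and the groups overlapped throughout. The folds of these 5 genes ran from -0.14 to 0.27 for mdx over WT, from -0.37 to 0.04 for mdxTG over mdx and from -0.27 to -0.05 for mdxTG over WT. H2-Q4, H2-Q5, H2-Q6 and H2-Q7 share 21.8% to 36.4% of their 50-base stretches with other genes, and their single values are uncertain.

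**Figure D3:**
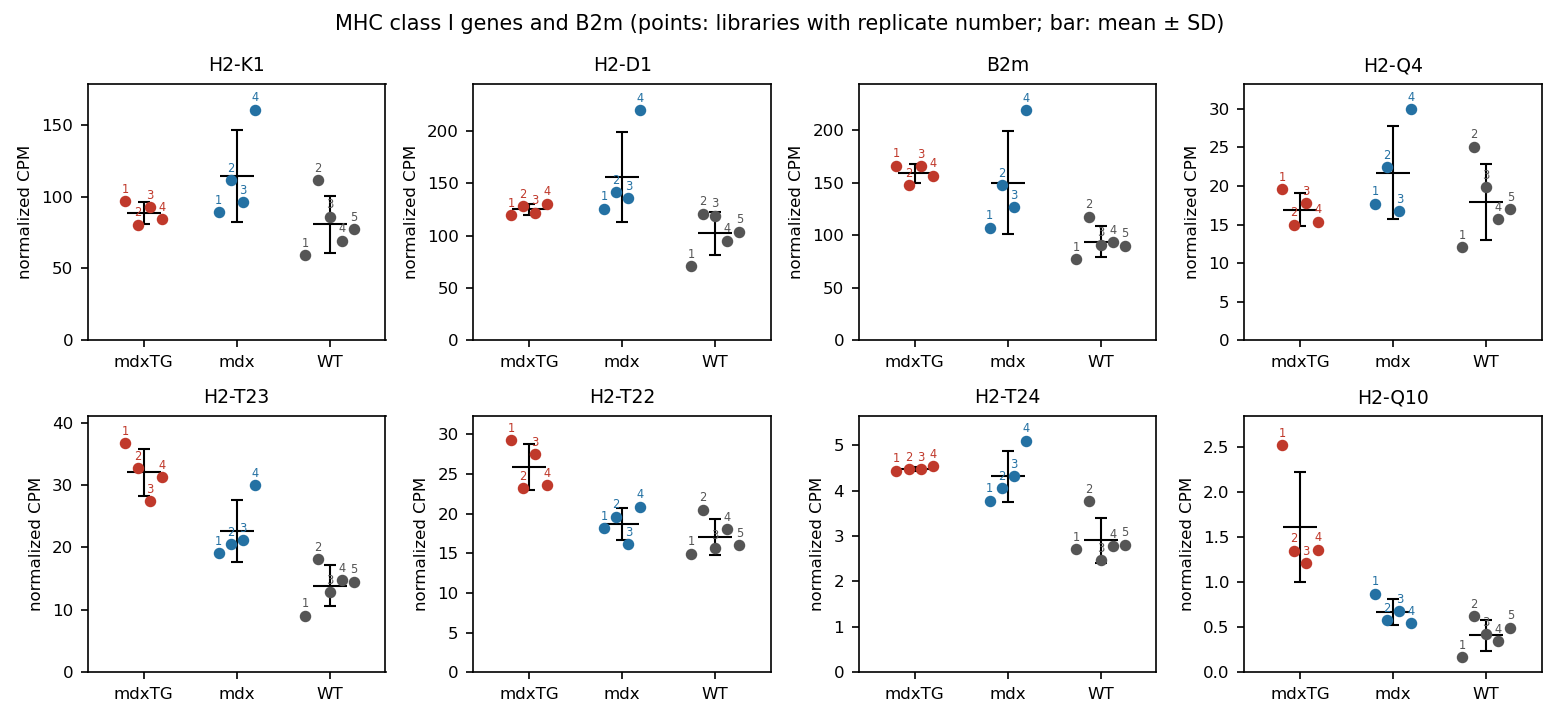
Normalized CPM of 8 class I genes in mdxTG, mdx and WT libraries, drawn as points with replicate numbers and mean ± SD bars (4, 4 and 5 libraries). H2-K1, H2-D1 and H2-Q4 are highest in mdx replicate 4 (160.3, 219.5 and 29.9), whereas H2-T22 and H2-Q10 are above all other libraries in all 4 mdxTG libraries.

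Among the genes that make and load class I peptides, Calr, Tap1 and Nlrc5 were higher in mdx than in WT, and Calr, Canx, Tapbp and Tapbpl were higher in mdxTG than in mdx. Of the 13 genes, 3 were thus higher in mdx than in WT, and 0 were lower with limma at the adjusted or unadjusted threshold, edgeR or DESeq2. In mdxTG against mdx 4 were higher and 1 lower, and in mdxTG against WT 6 were higher and 1 lower. Over all genes 18.5% were higher in mdx against WT, 15.4% higher and 12.9% lower in mdxTG against mdx, and 28.7% higher and 25.3% lower in mdxTG against WT. The share of processing genes called thus lies near the background in mdxTG against WT (54% of all genes in either direction), and so does the share higher in mdx against WT.

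Nlrc5 (chromosome 8, 94434356 to 94527272), the class I coactivator, had 4.1, 2.76, 5.14 and 4.87 normalized CPM in mdxTG, 3.91, 7.49, 7.31 and 12.9 in mdx, and 2.75, 5.13, 3.84, 3.74 and 5.28 in WT. The mdx libraries spanned a wide range, with replicate 1 inside the WT range and replicate 4 highest, and mdxTG did not stand apart from WT. The fold of mdx over WT was 0.78 ± 0.27 (limma adjusted p = 0.0366) and was lost in 10 of 27 alternatives, for example without mdx replicate 2, 3 or 4 (0.0716 to 0.134) or WT replicate 1, 3 or 4 (0.0638 to 0.0804). Between mdxTG and mdx it was -0.76 (interval from -1.36 to -0.15, limma adjusted p = 0.0602), which passed as lower with edgeR (0.0383) and DESeq2 (0.0122) on recovered reads. Tap1 (chromosome 17, 34187553 to 34197225), a subunit of the peptide transporter, had 8.27, 7.25, 8.23 and 8.03 in mdxTG, 7.11, 10.9, 8.5 and 14.1 in mdx, and 4.83, 7.96, 6.08, 5.19 and 6.73 in WT. It was higher in mdx than in WT by 0.66 ± 0.17 (limma adjusted p = 0.00875) with overlap between the groups, and without both WT replicate 1 and mdx replicate 4 it did not pass (0.0604). Tap2, the other subunit, had means of 14.7 in mdxTG, 14.3 in mdx and 13.4 normalized CPM in WT and did not pass, but in plain CPM it was higher in mdxTG (0.000484) and in mdx (0.017) than in WT.

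Calr (chromosome 8, 84841850 to 84846934) encodes calreticulin, the lectin chaperone that steadies class I heavy chains during loading. It had 220, 227, 231 and 228 normalized CPM in mdxTG, 150, 171, 159 and 170 in mdx, and 126, 138, 136, 146 and 135 in WT, 3 steps without overlap and with little spread. The fold was 0.48 ± 0.07 for mdxTG over mdx (limma adjusted p = 0.000101), 0.73 ± 0.06 for mdxTG over WT (3.14e-07) and 0.26 ± 0.06 for mdx over WT (0.00652); the last was 0.21 and did not pass (0.0584) without both WT replicate 1 and mdx replicate 4. Canx (chromosome 11, 50293961 to 50325673), calnexin, its membrane-bound relative, had 155, 150.3, 157 and 147 in mdxTG, 121, 136, 124 and 129 in mdx, and 114, 108, 118, 121 and 119 in WT. Canx was above all mdx libraries in all mdxTG libraries, by a fold of 0.26 ± 0.06 (limma adjusted p = 0.0072).

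Tapbpl (chromosome 6, 125223933 to 125231860), the tapasin relative TAPBPR that edits class I peptides, had 7.71, 8.13, 7.56 and 8.92 normalized CPM in mdxTG, 4.8, 4.68, 4.01 and 5.23 in mdx, and 4.28, 3.68, 4.02, 4.8 and 5.08 in WT. Only mdxTG stood apart, by 0.73 ± 0.11 over mdx (limma adjusted p = 0.000196) and 0.82 ± 0.10 over WT (1.41e-05). Tapbp (chromosome 17, 33915899 to 33929292), tapasin itself, had 66.9, 63.2, 55.8 and 64.7 in mdxTG, 44.5, 45.3, 42 and 57.1 in mdx, and 33.4, 48.9, 40.9, 41.4 and 44.8 in WT. It was higher in mdxTG than in mdx by 0.41 ± 0.12 (limma adjusted p = 0.0168), with mdx replicate 4 inside the mdxTG range, and than in WT by 0.58 ± 0.11 (0.000498). Without mdx replicate 3 the first of these did not pass (0.0527). Erap1, the peptide trimmer of the endoplasmic reticulum, passed in no comparison, with means of 25.9 in mdxTG, 28.2 in mdx and 28.7 normalized CPM in WT.

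The proteasome genes gave mixed results. The PA28 activator is a ring of Psme1 and Psme2 products. Psme1 (chromosome 14, 55578123 to 55581529) had 20.3, 19.9, 22.6 and 19.8 normalized CPM in mdxTG, 25.6, 27.2, 21.3 and 31.1 in mdx, and 26.1, 34, 28.1, 28.7 and 26.4 in WT. Psme2 had 27, 22.2, 25.2 and 24.5 in mdxTG, 23.5, 25.1, 16.9 and 20.2 in mdx, and 18, 25, 15.4, 17.8 and 17.4 in WT. Psme1 was lower in mdxTG than in WT by -0.46 ± 0.10 without overlap (limma adjusted p = 0.00197) and than in mdx by -0.33 ± 0.11 with overlap (0.0364), a call lost in 10 of 27 alternatives, among them without mdxTG replicate 1, 2 or 4 (0.0754 to 0.0882) and without mdx replicate 1, 2 or 4 (0.0649 to 0.117). In plain CPM Psme1 was -0.09 against WT and did not pass (0.49). Psme2 was higher in mdxTG than in WT by 0.41 ± 0.13 (limma adjusted p = 0.0189), but not without mdxTG replicate 1 (0.0551), and it shares 28.3% of its 50-base stretches with Psme2b. The ratio of Psme2 to Psme1 within a library, which the scaling does not touch, was 1.12 to 1.33 in mdxTG, 0.651 to 0.923 in mdx and 0.550 to 0.736 in WT.

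Interferon-inducible catalytic subunits replace constitutive ones in the immunoproteasome. Psmb8 and Psmb9 passed in none of the 3 comparisons, and without WT replicate 2 both were higher in mdx than in WT (log2 folds 0.62 and 0.54), as they were in plain CPM (0.67 and 0.62). Psmb10 was higher in mdxTG than in WT by 0.45 ± 0.13 (limma adjusted p = 0.0119). As a share of each catalytic pair per kb, Psmb8 took 3.71 ± 0.233% of Psmb8 plus Psmb5 in mdxTG, 5.31 ± 2.07% in mdx and 3.82 ± 0.951% in WT (SD, n = 4, 4 and 5). The wide mdx spread came from replicate 4, at 8.40%, against 4.01 to 4.495% in the other 3. Psmb10 took 15.2 to 16.8% of Psmb10 plus Psmb7 in mdxTG, 11.5 to 15.4% in mdx and 9.59 to 12.8% in WT. The mdxTG range of Psmb10 lay above the WT range and met only mdx replicate 4.

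**Figure D4:**
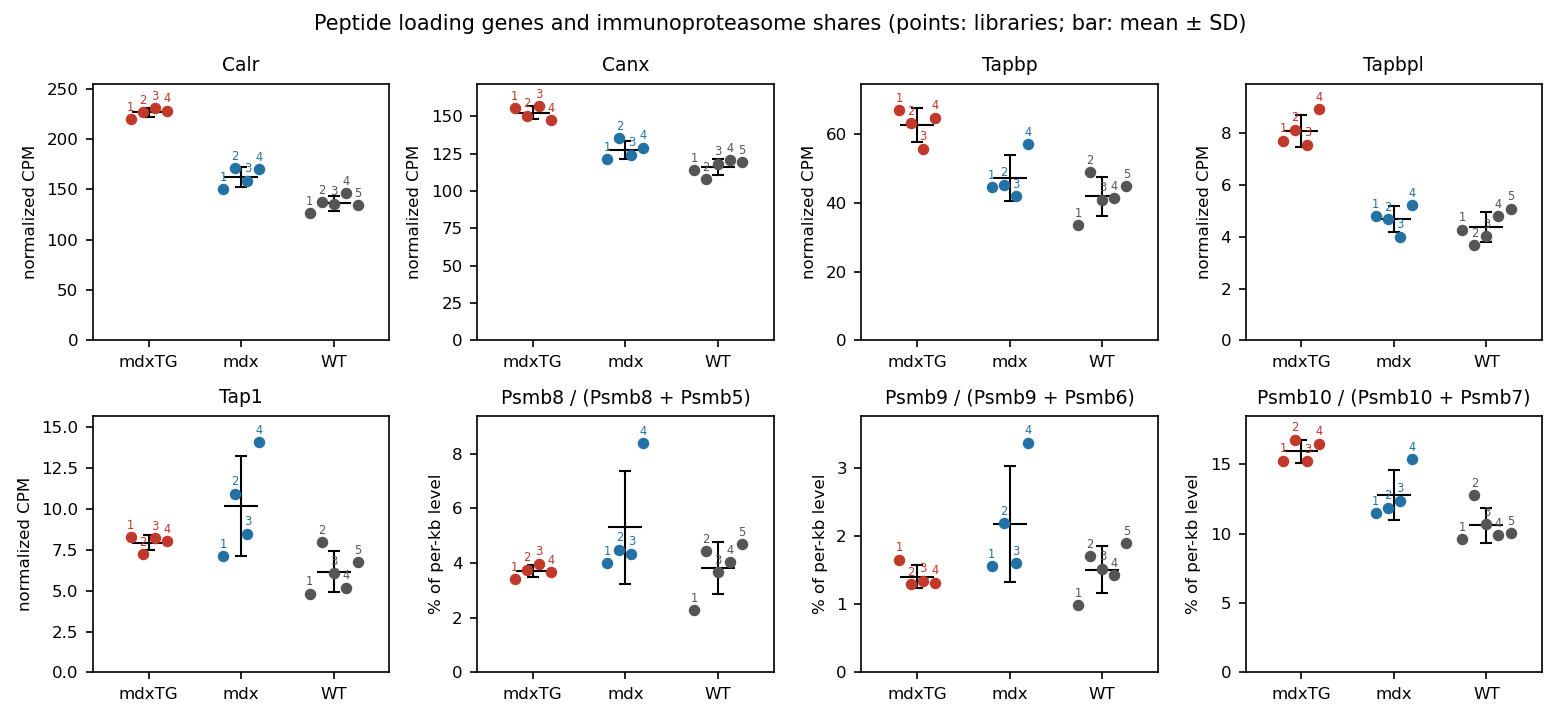
Normalized CPM of 5 peptide loading genes and the per-kb share of 3 immunoproteasome subunits in their catalytic pairs (%), as points per library with mean ± SD (4 mdxTG, 4 mdx and 5 WT libraries). Calr and Tapbpl of all 4 mdxTG libraries lie above every mdx and WT library, and mdx replicate 4 is the top point for Tap1, Psmb8 and Psmb9.

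Setting the classes side by side, the class II share of the summed class I and class II level per kb was 39.8 to 47.9% in mdxTG, 40.5 to 46.9% in mdx and 21.8 to 40.3% in WT. Means were 43.7 ± 4.52% in mdxTG, 43.2 ± 2.67% in mdx and 34.2 ± 7.39% in WT (SD, n = 4, 4 and 5). WT replicate 1 set the low end, and the other 4 WT libraries held 33.5 to 40.3%. With B2m and Cd74, the most abundant gene of each class, taken out, the means were 49.1% in mdxTG, 46.2% in mdx and 35.1% in WT, and the highest WT library (39.9%) then lay below the lowest dystrophic one (42.3%, mdx replicate 1). These shares are a description without a test, as the members were chosen with earlier results known.

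Within a genotype, 1 library was often the highest for most genes of a class. It was the same library for both classes in mdx and a different one for each class in mdxTG and in WT. In WT, replicate 3 was highest for 7 of 7 class II genes and replicate 2 for 13 of 14 class I genes, whereas replicate 1 was lowest for 6 of 7 and 9 of 14. In mdx, replicate 4 was highest for 6 of 7 class II and 11 of 14 class I genes. In mdxTG, replicate 4 was highest for 6 of 7 class II genes and replicate 1 for 11 of 14 class I genes. The median coefficient of variation of the class II genes was 11.1% in mdxTG, 26.1% in mdx and 34.6% in WT, and that of the class I genes 13.6% in mdxTG, 27.7% in mdx and 25.9% in WT.

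Leukocyte markers, like most class II genes, were higher in both dystrophic groups than in WT. Of all genes, 18.5% were higher in mdx against WT and 28.7% in mdxTG against WT. All 5 pan-leukocyte markers (Ptprc, Coro1a, Laptm5, Cd52 and Cd53) were higher in mdx than in WT and 5 in mdxTG than in WT, and their summed level was 56.9 to 79.3 normalized CPM in mdxTG, 77.3 to 125 in mdx and 16.04 to 47.5 in WT. Between mdxTG and mdx 1 of 5 was lower, Cd53 (log2 fold -0.61, limma adjusted p = 0.0495). All 5 had log2 folds below 0 there, with a median of -0.555, against a median of -0.038 over the class II genes. Of 14 macrophage and monocyte markers 13 were higher in mdx than in WT and 13 in mdxTG than in WT, with sums of 611 to 831 in mdxTG, 633 to 1183 in mdx and 115 to 361 in WT. Of 9 dendritic cell markers 6 were higher in each of these comparisons, with sums of 38.9 to 47.8 in mdxTG, 38.7 to 53.7 in mdx and 16.6 to 24.3 in WT. In mdxTG against WT 1 of the 9, Siglech, was lower (0.504 to 0.691 against 0.791 to 1.73 normalized CPM), where 25.3% of all genes were lower. Against mdx, 1 macrophage marker was higher and 3 lower in mdxTG, and 1 dendritic cell marker was higher and 2 lower (15.4% and 12.9% of all genes). The higher ones were Cd68 (means of 97.7 in mdxTG and 31.7 normalized CPM in mdx) and Zbtb46 (16.4 and 9.31). Itgax (5.99 and 11.1) and Irf8 (8.16 and 13.1) fell, so similar sums can hide opposite moves of single markers. Of 7 B cell markers Cd22 was listed and the other 6 were not analysed here. Cd22 was at 0.552 to 0.791 normalized CPM in mdxTG, 0.83 to 2.24 in mdx and 0.133 to 0.526 in WT. Of 12 T and NK cell markers, Cd4 and Klrk1 were listed, with a sum of 1.73 to 2.33 in mdxTG, 1.16 to 4.38 in mdx and 0.217 to 1.32 in WT, and the other 10 were not analysed here. All 6 markers of regenerating fibres were higher in mdx than in WT and 6 in mdxTG than in WT, with sums of 183 to 231 in mdxTG, 162 to 488 in mdx and 16.2 to 76.5 normalized CPM in WT, and against mdx 1 was higher and 4 lower in mdxTG. The 6 endothelial markers summed to 282 to 362 in mdxTG, 278 to 353 in mdx and 274 to 406 in WT. The part of leukocyte number and of regenerating fibres in the MHC results was not tested.

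The libraries highest and lowest in class II were also those highest and lowest in leukocyte markers: mdx replicate 4 had the highest leukocyte sum (125) and WT replicate 1 the lowest (16.04). Per unit of leukocyte marker, the groups took another order. The summed level of H2-Aa, H2-Ab1, H2-Eb1 and Cd74 over the leukocyte sum was 6.96 to 7.60 in mdxTG, 4.22 to 5.56 in mdx and 5.66 to 7.07 in WT. The mdx libraries were thus below all mdxTG and all WT libraries in this ratio. Over the macrophage sum it was 0.642 to 0.708 in mdxTG, 0.481 to 0.589 in mdx and 0.752 to 1.03 in WT. H2-K1 plus H2-D1 over the leukocyte sum was 2.71 to 3.81 in mdxTG, 2.26 to 3.03 in mdx and 4.32 to 8.14 in WT, where WT replicate 1 was the highest. The ratios are descriptions without a test, and the macrophage sum mixes markers that rose and fell between mdxTG and mdx.

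**Figure D5:**
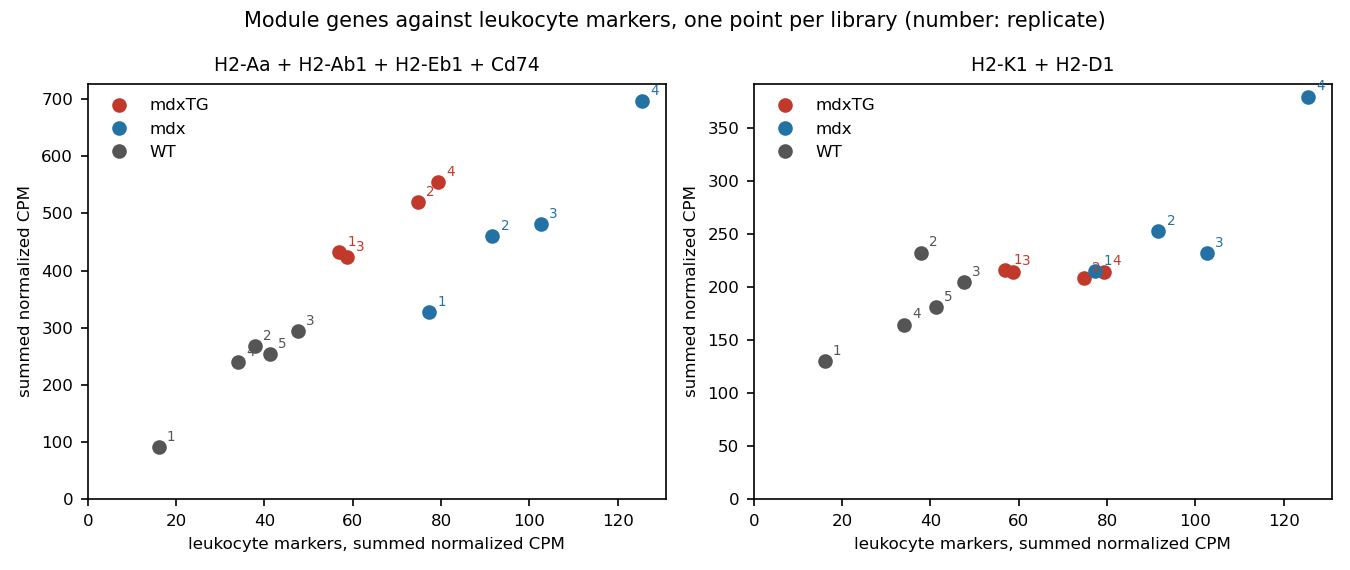
Summed normalized CPM of 4 class II genes (left) and of H2-K1 plus H2-D1 (right) against the summed normalized CPM of 5 leukocyte markers, 1 point per library with its replicate number, in mdxTG (red), mdx (blue) and WT (grey). On the left the ratios are 6.96 to 7.60 in mdxTG and 4.22 to 5.56 in mdx, where mdx replicate 1 is the 1 mdx library within the leukocyte levels of mdxTG and the other 3 lie above them; on the right the 4 mdxTG libraries share a narrow band of levels while WT spreads widely.

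Partners outside the 38 genes were counted by list. Over all genes 18.5% were higher and 16.1% lower in mdx against WT, and 15.4% higher and 12.9% lower in mdxTG against mdx. In mdxTG against WT these shares were 28.7% and 25.3%. In endosomal processing and turnover of class II, 8 of 12 genes were higher and 0 lower in mdx than in WT (0 lower at an unadjusted p under 0.05, limma). Ctss, the cathepsin that cuts the invariant chain, had 39.5, 43.4, 44.5 and 54.6 normalized CPM in mdxTG, 85.6, 109, 122 and 158 in mdx, and 5.75, 11.2, 20.1, 12.5 and 14.4 in WT. The 3 groups did not overlap, and mdxTG lay between the other groups, by a log2 fold of -1.35 ± 0.28 over mdx (limma adjusted p = 0.00224) and of 1.88 ± 0.26 over WT (3.46e-05). The fold of mdx over WT was 3.23 ± 0.26 (1.28e-06), larger than that of any of the 38 genes. Lgmn, the endosomal asparagine endopeptidase, took another order, at 146 ± 3.41 in mdxTG, 111 ± 13.7 in mdx and 38.5 ± 5.13 normalized CPM in WT (SD, n = 4, 4 and 5), and was higher in mdxTG than in mdx by 0.40 ± 0.10 (limma adjusted p = 0.0102). Over the list, 4 of 12 genes were higher and 1 lower in mdxTG against mdx, and 8 higher and 1 lower in mdxTG against WT.

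In the list of loading partners and chaperones of the endoplasmic reticulum, 4 of 13 genes were higher and 0 lower in mdxTG against mdx (0 lower at an unadjusted p under 0.05, limma). Against WT 7 were higher and 2 lower in mdxTG, and 8 higher and 2 lower in mdx. Of all genes, 15.4% were higher in mdxTG against mdx, 28.7% in mdxTG against WT and 18.5% in mdx against WT. Hspa5, the BiP chaperone, averaged 338 ± 23.1 in mdxTG, 232 ± 16.7 in mdx and 167 ± 16.7 normalized CPM in WT (SD, n = 4, 4 and 5), with a fold of 0.54 ± 0.09 for mdxTG over mdx (limma adjusted p = 0.000489). The disulfide isomerases P4hb and Pdia6 were higher in mdxTG than in mdx by 0.36 ± 0.06 (0.000329) and 0.41 ± 0.08 (0.00119). Of 17 constitutive proteasome genes 0 were higher and 2 lower in mdx against WT, 2 higher and 0 lower in mdxTG against mdx, and 0 higher and 2 lower in mdxTG against WT. At an unadjusted p under 0.05 (limma) those 3 zeros became 0, 0 and 2. These proteasome counts lie below the shares of all genes called in either direction, 34.6%, 28.4% and 54% in the same order.

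Among 15 transcription factors of MHC genes, 4 were higher and 0 lower in mdx than in WT (2 lower at an unadjusted p under 0.05, limma). In mdxTG 2 were higher and 5 lower against mdx, and 4 higher and 3 lower against WT. Of all genes, 34.6% were called in either direction in mdx against WT, 28.4% in mdxTG against mdx and 54% in mdxTG against WT. The factors called in the comparisons with WT lie near these shares. The NF-kappa B subunit Relb averaged 18.8 ± 1.82 in mdxTG, 8.07 ± 0.809 in mdx and 7.18 ± 1.28 normalized CPM in WT, and rose by 1.17 ± 0.12 in mdxTG over mdx (limma adjusted p = 8.12e-06). Nfyb, a subunit of the Y box binder NF-Y, fell by 0.66 in mdxTG against mdx (limma adjusted p = 6.01e-05), with levels of 16.8 ± 1.83 in mdxTG, 26.9 ± 1.77 in mdx and 31.4 ± 2.02 in WT. The myeloid factors Spi1 and Irf8 were higher in mdx than in WT by 1.37 ± 0.22 and 1.13 ± 0.15, and Irf8 fell by 0.65 in mdxTG against mdx (limma adjusted p = 0.00547).

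Interferon gamma is the classic inducer of Ciita, and its receptor chain Ifngr2 and the kinase Jak2 went opposite ways in mdxTG. Ifngr2, a receptor chain, had 111, 97.8, 99.4 and 98.6 normalized CPM in mdxTG, 57, 57.1, 54.3 and 51.3 in mdx, and 71.1, 69.9, 74.5, 70.7 and 65.5 in WT. Jak2, the kinase bound to it, had 28.3, 30.4, 31.3 and 30.7 in mdxTG, 65.6, 54.3, 57 and 61.2 in mdx, and 111, 96.7, 97, 91.6 and 102 in WT. No library of 1 group entered the range of another for either gene. The other receptor chain and kinase, Ifngr1 and Jak1, overlapped between mdxTG and mdx. Ifngr1 had 50.3 to 68.4 normalized CPM in mdxTG and 38.4 to 60.4 in mdx, and Jak1 161.5 to 192 and 185.4 to 203.1. Ifngr2 was higher in mdxTG than in mdx by 0.88 ± 0.07 (limma adjusted p = 3.83e-07), and Jak2 was lower by -0.97 ± 0.08 (6.47e-07). Of the 18 genes of the interferon gamma list 2 were higher and 2 lower in mdxTG against mdx, 4 higher and 3 lower in mdx against WT, and 4 higher and 5 lower in mdxTG against WT, close to the backgrounds above. Of 16 type I interferon genes 5 were higher and 0 lower in mdx than in WT, 2 higher and 2 lower in mdxTG against mdx, and 6 higher and 0 lower in mdxTG against WT (0 lower at an unadjusted p under 0.05 in both cases, limma). The type I genes called lie near or below the shares of all genes called in either direction, 34.6%, 28.4% and 54% in the same order. Mx1 led in mdx against WT (1.07 ± 0.15, limma adjusted p = 0.000128).

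Of 8 costimulatory and adhesion genes, 5 were higher and 0 lower in mdx than in WT (1 lower at an unadjusted p under 0.05, limma). In mdxTG against WT 5 were higher and 1 lower. Of all genes, 18.5% were higher in mdx against WT, and 28.7% were higher and 25.3% lower in mdxTG against WT. Cd80, the T cell costimulator, had 1.87, 1.77, 1.81 and 2.07 normalized CPM in mdxTG, 0.807, 0.958, 0.854 and 0.758 in mdx, and 0.145, 0.3, 0.552, 0.133 and 0.458 in WT, again 3 steps without overlap, and rose by 0.83 ± 0.16 in mdxTG over mdx (limma adjusted p = 0.00149). Vcam1, an adhesion molecule, went the other way and fell by 0.93 (0.000406). Of 6 class I-like genes outside the H2 names, 0 were higher and 3 lower in mdxTG against mdx (1 higher at an unadjusted p under 0.05, limma). In mdx against WT 2 were higher and 2 lower, and in mdxTG against WT 2 were higher and 2 lower. Of all genes, 28.4%, 34.6% and 54% were called in either direction in these comparisons, in this order. Mr1, which presents vitamin B metabolites to MAIT cells, averaged 20.1 ± 0.432 in mdxTG, 26.5 ± 1.53 in mdx and 34.6 ± 3.59 normalized CPM in WT, and fell in mdxTG against mdx (limma adjusted p = 0.00285) and in mdx against WT (0.00223).

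Position on chromosome 17 was examined because most H2 genes sit in 1 block. Between 33974659 and 37274484 on chromosome 17 (mm10), 74 listed genes are not among the 38. Of these neighbours 14 were higher and 14 lower in mdx against WT, 16 higher and 5 lower in mdxTG against mdx, and 25 higher and 17 lower in mdxTG against WT. Over all genes 34.6% were called in either direction in mdx against WT, 28.4% in mdxTG against mdx and 54% in mdxTG against WT. The neighbours called lie near these shares. By direction, 15.4% of all genes were higher and 12.9% lower in mdxTG against mdx, where the neighbours leaned to the higher side (16 against 5 of 74). Their median log2 fold was -0.11 in mdx against WT, 0.06 in mdxTG against mdx and 0.06 in mdxTG against WT.

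The authors' deposited tables of comparisons list few of these genes, since each table stops at an adjusted p of 0.01 and at a log2 fold of 1 in either direction. In the authors' deposited table of mdx against WT, 5 of the 38 appear among 1073 genes, namely H2-DMb1, Ciita, H2-Aa, H2-Eb1 and H2-Ab1, with the authors' log2 folds from 1.05 to 2.04. The authors' deposited table of mdxTG against WT holds 7 among 1857 genes (H2-T23, H2-Q10, H2-DMb1, H2-Eb1, Ciita, Cd74 and H2-Aa). In the authors' deposited table of mdxTG against mdx, H2-Q10 is the 1 member among 748 genes, with an authors' log2 fold of 1.26 and adjusted p of 0.00853.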

How the data were processed

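Per the labels' protocols, RNA was taken up in TRIzol, cleaned on RNeasy columns with DNase and sequenced as stranded TruSeq mRNA libraries. The submitters' processing notes name bcl2fastq 2.17, STAR, edgeR and mm10; the read counter, strand setting and annotation are not stated there. The authors deposited total and mapped read counts per library and the mapped share as a fraction. The expression signal, named CPM in the sheet, was made by the authors by dividing the reads of a gene by a scaled library size. Dividing by the step of each library gave whole reads within 0.001 for 100% of values. Log2 folds and p-values of the authors' own comparisons were deposited as tables, which also hold an F statistic (a score) and −log10 p-values that were not used.

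Tests were run with limma 3.58.1 (R 4.3.3, empirical Bayes with trend) on log2(normalized CPM + 0.5), a scale that shrinks folds of low genes. The fit held all 13 libraries, genes needed 0.5 normalized CPM in 4 libraries (13831 of 13846), and p-values were two-sided, with Benjamini-Hochberg adjustment over these genes and a threshold of 0.05. "Higher", "lower", "rose" and "fell" of a gene mean past that threshold. Members and gene lists were chosen with earlier results of these data known, so counts over them are descriptions. Any member may be named, and of each other list the 3 genes with the smallest p in each comparison; Sspn and Dmd check the labels, and other named genes were chosen after their values were seen. The scripts were tested on simulated data. Coordinates and exon lengths are those of GENCODE M21 (mm10), and a shared stretch is a 50-base sequence of a gene's exons found in another gene. An exon length counts every base in any annotated exon of a gene, which can exceed the length of 1 mature RNA. Levels, orders and shares per kb depend on these lengths and are not measured proportions of transcripts or subunits. Between mdx and WT, same-numbered libraries deviated together (correlations of 0.336, 0.446, 0.326 and 0.183), but mdx replicate 4 did not match its own number best. With mdxTG the correlations ran from -0.465 to 0.407, and mdxTG replicates 1 and 4 matched their own mdx number best. The labels do not say that the numbers pair libraries. The tests reported therefore leave the numbers out, and the replicate block is an alternative only. In 22 pairs of libraries of 1 genotype, chi-square per degree of freedom was 24.2 to 181.5, so no pair agreed within sampling noise. Depth limits low genes: H2-DMb2 had 37 reads on average. Alternatives were edgeR 4.0.16 and DESeq2 1.42.0 on recovered reads, other filters, pseudocounts and scalings, the replicate block, fits of 2 genotypes, a threshold of 0.01 and leaving out libraries.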

Additional observations from a re-analysis of the deposited data

Results flagged for a closer look

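Single libraries stood far from the rest of their group for 10 of the 114 gene and group sets examined by the gap between an extreme library and its neighbour; chance alone flags about 1 set in 20. In WT replicate 2 the highest value was set apart for Rfxap (19.25 normalized CPM, next 15.74), Psmb10 (14.81, next 9.811), Psme2 (25.03, next 17.97), H2-K2 (6.516, next 3.393) and H2-T24 (3.763, next 2.808). In WT replicate 1 the lowest value was set apart for H2-Aa (21.66, next 57.15), H2-Eb1 (15.46, next 40.46) and Cd74 (36.71, next 98.71). In mdx replicate 4 H2-D1 was set apart at 219.5 (next 141.2), and in mdxTG replicate 1 H2-Q10 at 2.52 (next 1.361).

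The class II genes named here passed in mdx against WT and in mdxTG against WT without WT replicate 1 too, and H2-D1 passed in mdx against WT without mdx replicate 4. WT replicate 1 was also the library with the lowest sum of leukocyte markers (16.04 normalized CPM, against 34.1 to 47.5 in the other WT libraries). WT replicate 2 had a Dmd level of 124, against 244 to 256 in the other WT libraries. It also had the lowest share of uniquely mapped reads of all 13 libraries, 80.94%, where the next lowest was 84.38% in WT replicate 4. By group this share was 86.58 to 88.62% in mdxTG, 84.96 to 87.36% in mdx and 80.94 to 85.83% in WT. Whether these libraries differ for a technical reason was not tested.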

How the results depend on the processing

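No call of the 38 genes turned its direction in any of 27 alternatives, and all 6 class II calls against WT held in each of them, apart from Cd74 in mdx against WT at a threshold of 0.01 (adjusted p = 0.0118). Beside the counts reported for mdx against WT (17 higher, 6 of class I and 3 of processing), plain CPM gave 28 higher, 9 of class I and 10 of processing, a threshold of 0.01 gave 3 of class I, leaving out WT replicates 1 and 2 gave 5 of processing, and leaving out both WT replicate 1 and mdx replicate 4, chosen after seeing the data, gave 12 higher and 0 of processing. Leaving out 1 library at a time gave 14 to 21 higher in all, 4 to 6 of class I and 2 to 7 of processing, with 7 without WT replicate 2. For mdxTG against mdx (8 higher, 2 lower; 3 of class I higher; 4 of processing higher and 1 lower), the filter of 2 normalized CPM, which tests fewer genes, gave 1 of class I. There 0 were lower and 0 of processing in plain CPM and at a threshold of 0.01, 2 of processing were lower with edgeR, DESeq2, the replicate block and without WT replicates 1 and 2, and 1 was lower in all and 0 of processing without both WT replicate 1 and mdx replicate 4. Leaving out 1 library gave 6 to 9 higher, 0 to 3 lower, and 0 to 2 of processing lower; it was 0 lower in all without mdxTG replicate 1 or 4, and 0 of processing lower also without mdxTG replicate 2 or mdx replicate 2 or 4. For mdxTG against WT (20 higher, 2 lower), plain CPM gave 28 higher, with 9 of class I (6 reported), 9 of processing (6 reported) and 7 of class II (6 reported), and 0 lower and 0 of processing lower. It added H2-K1, H2-D1, H2-M3, H2-DMb2, Tap1, Tap2, Psmb8 and Rfxank (adjusted p of 0.000187 to 0.0454), and 2 of processing were lower without WT replicates 1 and 2; leaving out 1 library gave 19 to 21 higher and 2 lower throughout. The cause of these shifts was not tested, except that plain CPM moves the median of all genes upward. With the replicate number as a block, H2-K1 (adjusted p = 0.0714) and H2-M3 (0.0593) lost their calls in mdx against WT, leaving 15 higher. Nlrc5 then passed as lower in mdxTG against mdx (0.0353), although no label says that the numbers pair libraries. With the block and only the 2 genotypes compared, Psme1 in mdxTG against mdx (0.0588) and Psmb10 (0.0717) and Psme2 (0.0646) in mdxTG against WT were lost as well, and Psmb10 passed as higher in mdxTG against mdx (0.0374). The block changed no other call of mdx against WT.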
